A study of Mus musculus with 8 samples.

Results

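The 77 mouse genes described here are named for proteins of the mitochondrial ribosome. They were taken by symbol, as all rows of the expression tables named Mrpl or Mrps followed by a number and, in some, a letter from a to d, out of 45706 genes in all. The RNA came from sorted natural killer (NK) cells, lymphocytes that kill cells lacking MHC class I. The host mice, of the BALB/c strain, had been inoculated under the skin with CT26_b2m-/- cells, a murine colorectal carcinoma line without β2-microglobulin and so deficient in MHC class I. The tuNK group holds 4 libraries titled as NK cells from inside the tumour, and the spNK group holds 4 libraries titled as NK cells of the spleen. No genotype, treatment or time separates the groups, but per the labels only tumour cell suspensions went through a Percoll density step before sorting. The labels give no age of the mice, no sorting markers, and no word on whether a library came from 1 mouse or a pool, so p-values measure the spread between these libraries only. The tissue tag and source name of every sample name the opposite tissue to its title, and groups follow the titles here.

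Mitochondria keep a ribosome of their own, which makes the few membrane proteins of the respiratory chain that mitochondrial DNA encodes. Its RNA is transcribed inside the organelle, whereas every one of its proteins is encoded in the nucleus, made in the cytosol and imported. The large subunit joins amino acids and feeds the new chain into the inner membrane, and the small subunit reads the messenger RNA. Some of its proteins hold the place of a bacterial ribosomal protein, and others, here called mitochondria-specific, were added in mitochondria. In T cells, relatives of NK cells, mitochondrial translation sustains respiration and growth after activation.

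Library totals ran from 38745733 to 45404059 estimated counts in tuNK and from 40560781 to 53886933 in spNK, and each of the 77 genes had at least 449 counts in every library, so none was lost to the filter on low counts. The libraries differed in more than the ribosome. All 7 NK markers fixed for the check, among them Ncr1 and Eomes, were present, but fell in tuNK. They summed to 1513 ± 236 counts per 1000000 (CPM) in tuNK and 6219 ± 970 CPM in spNK (SD, n = 4 each). A list of 12 mesenchymal and tumour markers summed to 3744 ± 750 CPM in tuNK (3244 to 4841) and 123 ± 25.1 CPM in spNK (92.7 to 151), and all 12 rose, though Lum and Krt8 stayed near 0 in tuNK, at 0.86 and 0.487 TPM (transcripts per 1000000, a unit scaled for length). The 32 genes expressed across leukocytes stood at 29.0 ± 5.68% of their spNK level in tuNK. B and plasma cell markers summed to 0.904 ± 0.228 CPM in tuNK and 551 ± 358 CPM in spNK, and erythroid and platelet markers to 1.58 ± 0.823 CPM in tuNK and 408 ± 119 CPM in spNK. Macrophage and monocyte markers summed to 101 ± 8.63 CPM in tuNK and 526 ± 55.8 CPM in spNK (1 of 5 tested higher, 3 lower). The list was not of 1 direction: Cd14 rose, from 0.225 TPM in spNK to 41.3 TPM in tuNK. Itgam, Lyz2 and Csf1r fell, Itgam from 117 TPM in spNK to 7.24 TPM in tuNK, and Cd68 was not called. T cell markers summed to 3.63 ± 0.600 CPM in tuNK and 28.1 ± 6.10 CPM in spNK. The part of these other cells in the results for ribosomal proteins was not tested, and in bulk libraries fewer cells of a type and less RNA per cell cannot be told apart.

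Most genes of the mitochondrial ribosome were modestly higher in tuNK than in spNK. By edgeR's quasi-likelihood test over 14006 genes with Benjamini-Hochberg adjustment, 43 of the 77 rose (55.8%), 7 fell (9.09%) and 27 were not called. Among all genes tested, 35.6% were called higher and 34.0% lower, 69.6% in all. By scaled CPM, all tuNK libraries lay above all spNK libraries for 39 of the 77 genes (34.4% of all genes) and below them for 7 (32.7% of all genes). By TPM the counts were 21 above (26.2% of all genes) and 17 below (36.0% of all genes). The median log2 fold change of the 77 genes, tuNK over spNK, was 0.30, against 0.02 over all genes tested. The changes were small and close together: 55 of the 77 genes lay within 0.5 of their own median on the log2 scale (71.4%), compared with 32.0% of all genes around theirs. This comparison was not matched for level, and each of the 77 had at least 449 counts in every library. The closeness therefore need not be particular to ribosomal genes. Of the 77, 7 were called higher and changed at least 2-fold (21.9% of all genes did), and 0 were called lower by as much (19.3% of all genes).

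The direction of these changes depended on how the libraries were put on one scale. Because tuNK held less leukocyte RNA, each library was also scaled to the 32 leukocyte genes. Over all genes the median log2 fold change then became 1.84, and all 77 ribosomal protein genes were called higher, with a median of 2.13 and a range of 0.95 to 4.30, beside 79.3% of all genes higher and 5.44% lower. On log2(TPM + 1) limma called 28 higher and 16 lower, with a median of 0.07, where the median of all genes was -0.14. On that scale 28.4% of all genes were higher and 39.2% lower. The members' median stood above that of all genes by 0.28 with the counts as first scaled and by 0.21 on TPM. With all genes above 0 kept, the distance on log2(TPM + 1) was 0.095. After leukocyte scaling it was again 0.28, but a change of scaling factors shifts all genes nearly alike, so this is no separate result. An earlier description of these data named spNK 3 and tuNK 1 as holding the most markers of other cell types in their groups. Among the tuNK libraries, tuNK 1 was highest for mesenchymal and tumour markers (4841 CPM) and for macrophage and monocyte markers (114 CPM). It was lowest for B and plasma cell, erythroid and platelet, and T cell markers. With both libraries left out, a choice made after the data were seen, 49 genes were higher and 5 lower. Of all genes, 35.2% were then higher and 33.3% lower.

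**Figure D1:**
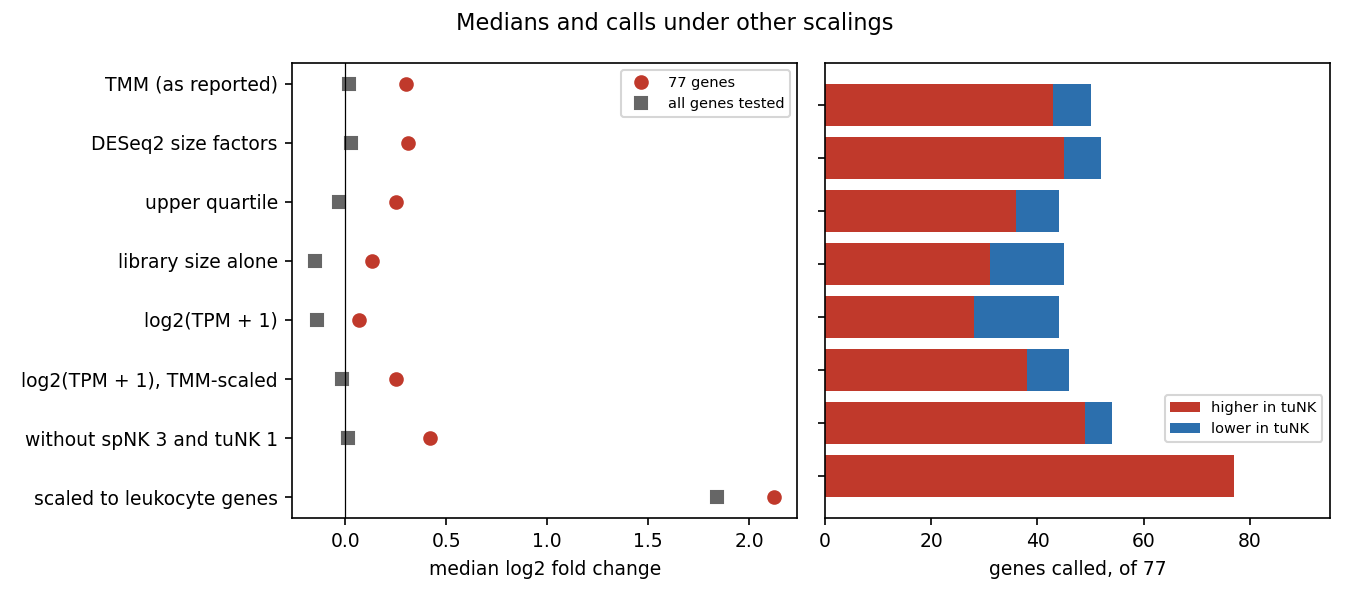
Median log2 fold change (left; circles for the 77 genes of the mitochondrial ribosome, squares for all genes tested) and number of the 77 genes called higher or lower in tuNK (right) under 8 scalings or choices of libraries. The circles lie to the right of the squares in each row. Other scaling factors on the same counts shift circles and squares nearly alike, so their distance in those rows is no separate result. The counts run from 28 higher on log2(TPM + 1), beside 28.4% of all genes, to 77 higher after scaling to leukocyte genes, beside 79.3%.

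**Figure D2:**
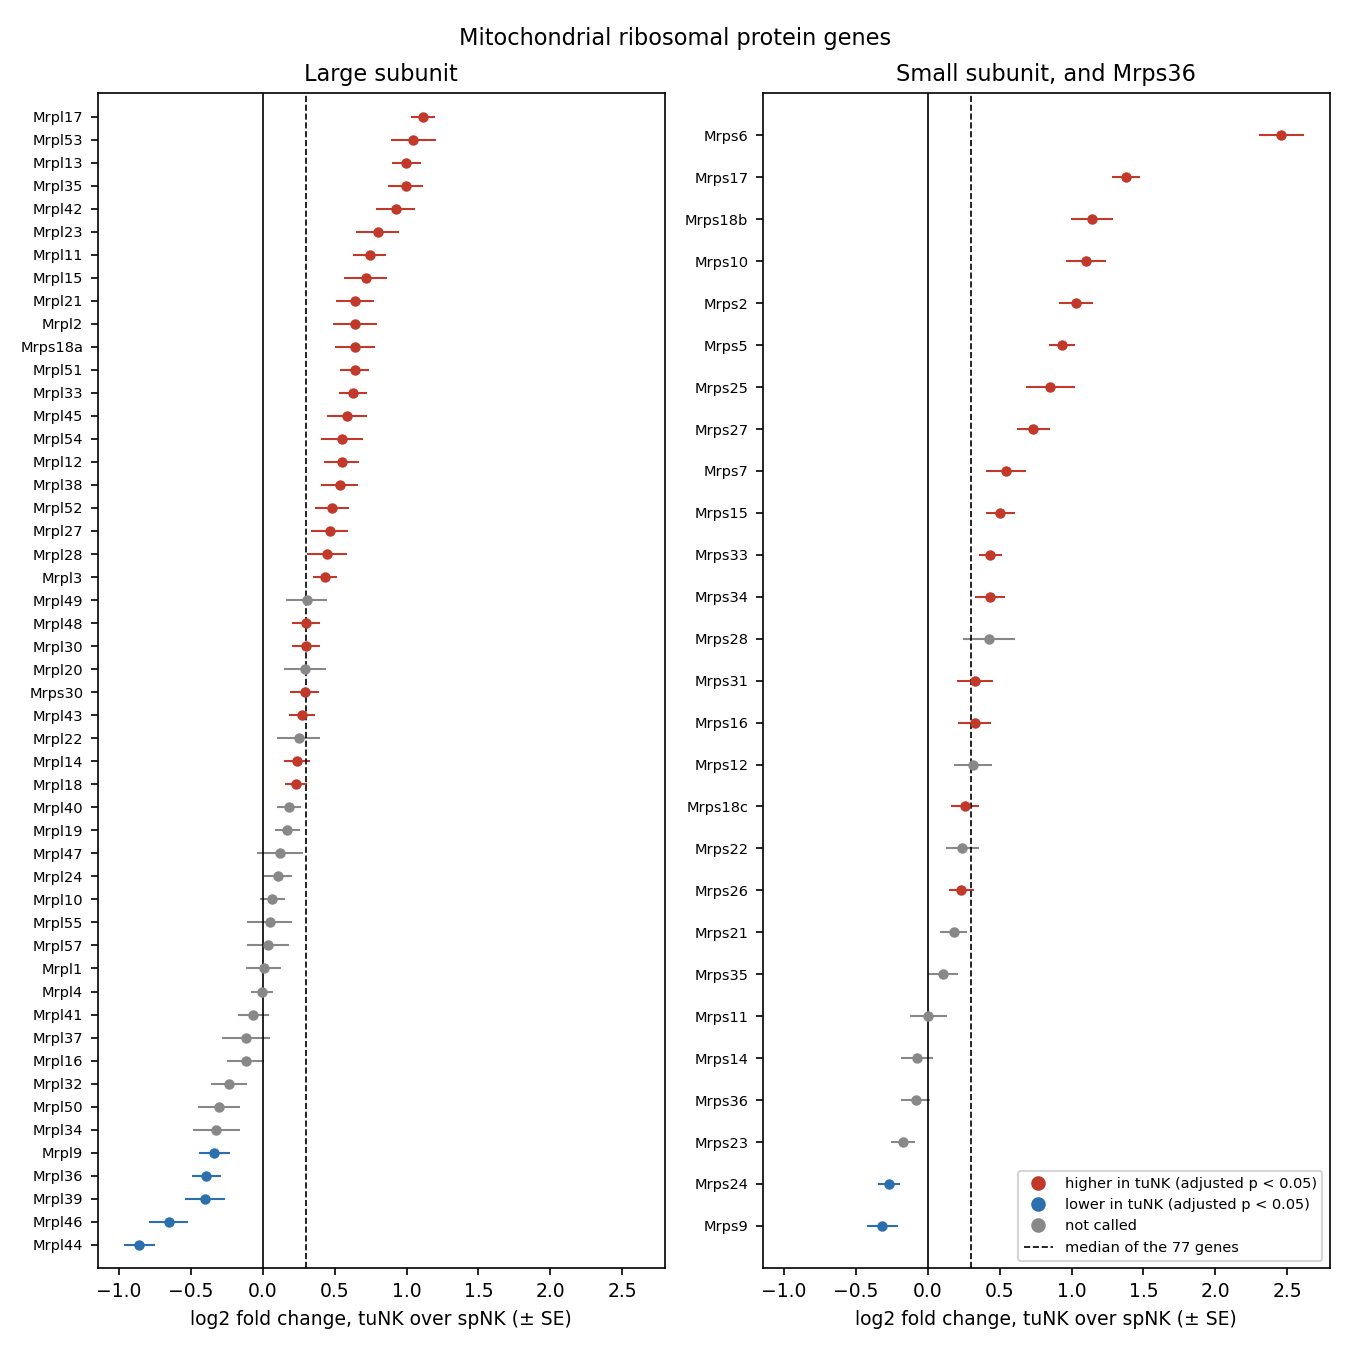
Log2 fold change, tuNK over spNK, of the 77 genes with standard errors, by subunit; Mrps18a and Mrps30 are drawn with the large subunit, where their proteins sit. Mrps6 stands apart at 2.46, and Mrpl44 is lowest at -0.86.

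Levels of single genes are given per length, as TPM. Across the 77 genes the group means ran from 7.95 to 313 TPM in tuNK, with a median of 55.8, and from 7.40 to 269 TPM in spNK, with a median of 52.1. The order of the genes was largely shared by the groups: across the 77 genes, which are not independent replicates and share libraries, the Spearman correlation of their mean levels in tuNK and spNK was 0.893. Mrpl52, a protein of the central protuberance, was highest in tuNK, with 293, 299, 344 and 316 TPM in tuNK 1 to 4 and 264, 261, 293 and 255 TPM in spNK 1 to 4. Only spNK 3 and tuNK 1 cross, spNK 3 being slightly the higher. Mrpl33 followed at 288 ± 26.2 TPM in tuNK and 227 ± 23.3 in spNK, and then Mrps21 at 256 ± 3.30 TPM in tuNK and 269 ± 22.3 in spNK. In tuNK the ranges of Mrpl52 and Mrpl33 over libraries overlap, so their order is not beyond the spread. At the low end stood Mrpl1, a protein of the L1 stalk where used transfer RNA leaves, at 7.95 ± 0.401 TPM in tuNK and 9.39 ± 0.937 in spNK. The log2 fold change had little relation to the level (Spearman 0.108) or to the length covered by exons (0.223), both across the 77 genes and given as descriptions.

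The summed level of the 77 genes was 5841, 5694, 5857 and 5525 TPM in tuNK 1 to 4, against 5140, 4913, 5568 and 5183 TPM in spNK 1 to 4. The groups overlap in 1 place, where spNK 3 lies above tuNK 4. The means were 5729 ± 155 TPM in tuNK and 5201 ± 272 TPM in spNK, a ratio of 1.10. Proteins of the large subunit summed to 3602 ± 74.8 TPM in tuNK and 3284 ± 218 TPM in spNK, and those of the small subunit to 2071 ± 82.9 TPM in tuNK and 1847 ± 58.4 TPM in spNK. The ratio of the large to the small subunit was 1.74 ± 0.0442 in tuNK and 1.78 ± 0.0808 in spNK, a difference inside the spread of either group.

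The genes that rose furthest, Mrps6, Mrps17 and Mrps18b, belong to the small subunit, and Mrpl17 of the large subunit came next (1.11). Of the 26 genes of the small subunit 16 were higher, 2 lower and 8 not called, with a median log2 fold change of 0.38. Over all genes tested, 35.6% were higher and 34.0% lower. Mrps6, the mitochondrial counterpart of bacterial S6, was at 140, 119, 130 and 105 TPM in tuNK 1 to 4 and at 23.7, 23.2, 23.5 and 36.4 TPM in spNK 1 to 4. The groups lie far apart, and spNK 4 is the highest of its group. The gene rose by 2.46 ± 0.16 on the log2 scale, or 5.5-fold (edgeR adjusted p = 2.64e-07; leukocyte-scaled 4.30). Mrps6 (ENSMUSG00000039680) lies on GRCm38 chromosome 16, from 92058270 to 92112227 on the plus strand. In the GENCODE M21 annotation 159 of its exon bases also belong to Slc5a3, a gene on the same strand for a myo-inositol transporter. Slc5a3 stood at 1.14 ± 0.242 TPM in tuNK and 0.221 ± 0.0645 TPM in spNK, and its log2 fold change of 2.45 ± 0.24 (adjusted p = 5.52e-06) was close to that of Mrps6. A predicted gene on the same strand, Gm49711, which was not among the genes tested, shares 305 of the Mrps6 exon bases (19.9%). Reads from bases shared with Slc5a3 (10.4%) or with Gm49711 cannot be given to 1 of the genes with certainty.

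Mrps17, a protein that binds the RNA of the small subunit, was at 162, 154, 169 and 148 TPM in tuNK 1 to 4 and at 57.1, 51.1, 70.3 and 74.3 TPM in spNK 1 to 4. All tuNK values were above all spNK values, and the gene rose 2.60-fold (log2 1.38 ± 0.09, adjusted p = 4.3e-07). Mrps10 and Mrps2, descendants of bacterial S10 and S2, rose 2.14-fold and 2.05-fold. Mrps10 averaged 54.2 ± 3.87 TPM in tuNK and 30.2 ± 3.15 in spNK, and Mrps2 averaged 25.1 ± 2.36 TPM in tuNK and 14.6 ± 1.04 in spNK. Mrps27, a member of the mitochondria-specific set, rose by 0.74 ± 0.11 on the log2 scale (adjusted p = 1.86e-04).

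The genes of the small subunit that fell did so less. Mrps9 was at 29.0 ± 3.19 TPM in tuNK and 43.3 ± 2.15 in spNK, a log2 fold change of -0.31 ± 0.11 (adjusted p = 0.0206), and this call was lost without spNK 2 (adjusted p = 0.0505) or without tuNK 4 (0.0565). The other was Mrps24, named after its values were seen, at -0.27 ± 0.08. Mrps21 and Mrps23, which are among the most abundant of the 77, were not called: Mrps21 had a log2 fold change of 0.18 ± 0.09 and Mrps23 of -0.17 ± 0.09. Without tuNK 1, Mrps21 was called higher (0.23, adjusted p = 0.0333), and without spNK 3, Mrps23 was called lower (-0.22, adjusted p = 0.0458). Mrps23 was at 203, 189, 186 and 199 TPM in tuNK 1 to 4 and at 253, 253, 205 and 240 TPM in spNK 1 to 4, so that on TPM its groups do not overlap, and it was called lower on log2(TPM + 1) (-0.28, adjusted p = 0.0117).

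**Figure D3:**
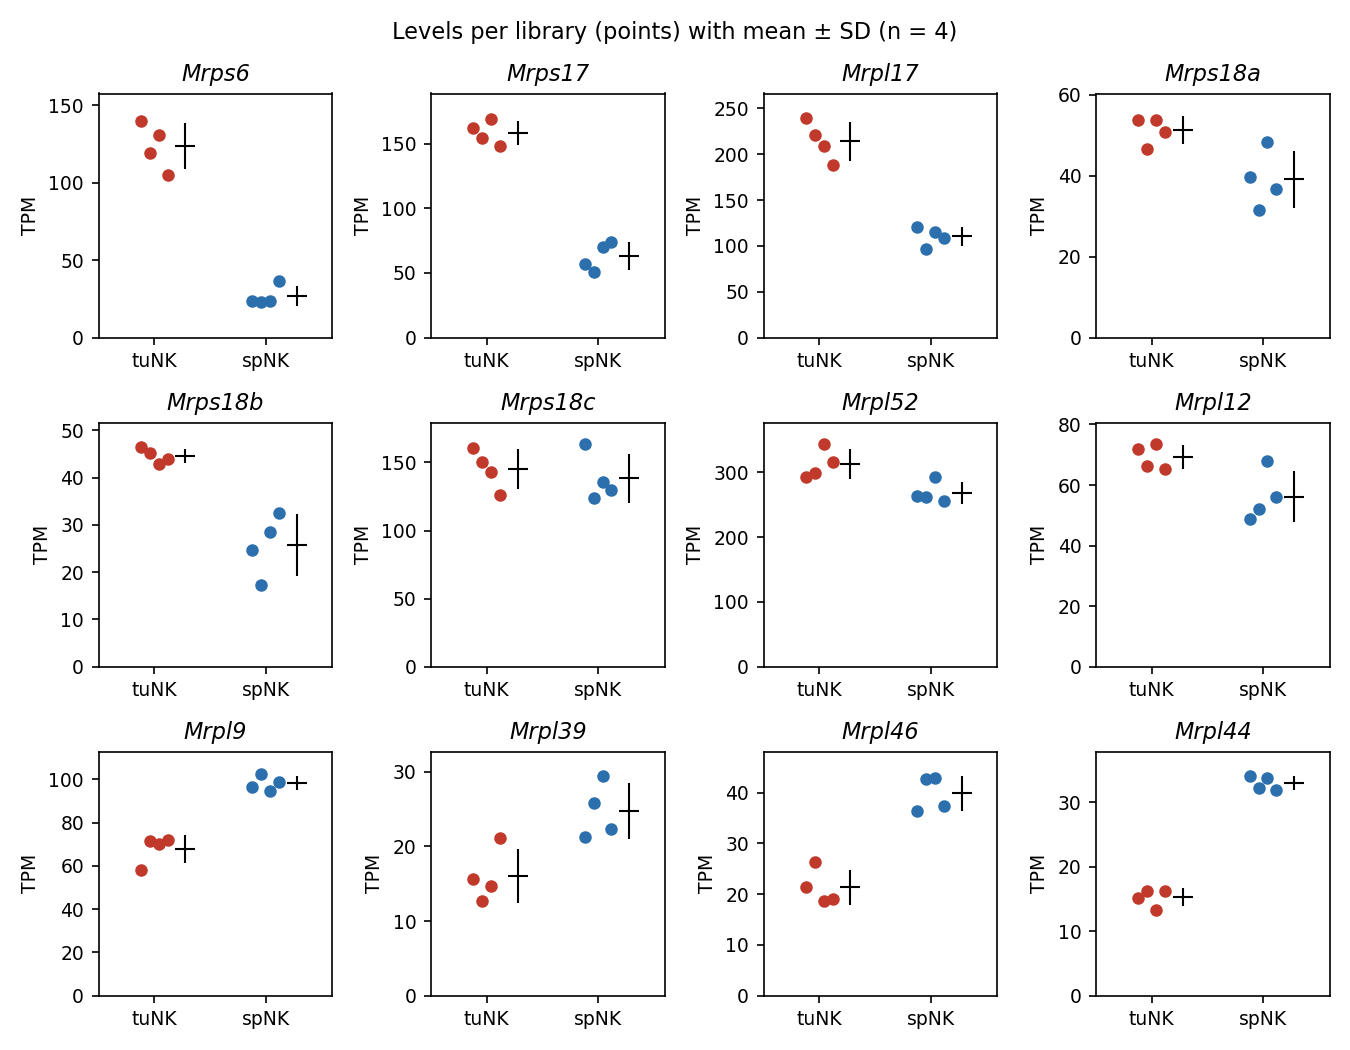
Level in TPM of 12 of the genes in each library (points, tuNK left and spNK right), with the mean and SD of 4 libraries beside them; each axis starts at 0. The tuNK points of Mrps6, Mrps17 and Mrpl17 lie above all spNK points, those of Mrpl9, Mrpl39, Mrpl44 and Mrpl46 below them, and those of Mrps18c among them.

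Bacterial S18 has 3 relatives in mammals. Mrps18c is counted here with the bacterial homologues, and Mrps18a and Mrps18b, as copies added in mitochondria, with the mitochondria-specific proteins. Mrps18b, whose protein sits in the small subunit, was at 46.4, 45.1, 42.8 and 43.9 TPM in tuNK 1 to 4 and at 24.8, 17.2, 28.4 and 32.5 TPM in spNK 1 to 4. The groups do not overlap, and the tuNK values are tight where the spNK values scatter. The gene rose by 1.14 ± 0.14 on the log2 scale (adjusted p = 3.72e-05). Mrps18a, whose protein belongs to the large subunit despite its name, rose by 0.64 ± 0.14 (adjusted p = 0.0019), with 51.3 ± 3.39 TPM in tuNK and 39.1 ± 6.96 in spNK. Mrps18c, also of the small subunit, was the most abundant of the 3, at 161, 151, 143 and 126 TPM in tuNK 1 to 4 and 164, 124, 136 and 130 TPM in spNK 1 to 4. These values overlap fully. Its call by counts (0.26 ± 0.10, adjusted p = 0.0351) was not held without spNK 2, spNK 4, tuNK 2, tuNK 3 or tuNK 4, left out in turn (adjusted p 0.0818 to 0.111), nor on log2(TPM + 1) (0.07, adjusted p = 0.579).

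In the large subunit 27 of 50 genes were higher, 5 lower and 18 not called, with a median of 0.29. Beside this count and that of the stalks, 35.6% of all genes tested were higher and 34.0% lower. The stalks, which handle transfer RNA and call in the elongation factors, had 4 of 6 genes higher and 0 lower (Mrpl1 and Mrpl10 were not called), with a median of 0.55. Mrpl53, a protein at the stalk base, was at 90.0, 76.4, 101 and 94.5 TPM in tuNK 1 to 4 and at 41.0, 52.9, 55.2 and 59.3 TPM in spNK 1 to 4. It rose 2.07-fold (log2 1.05 ± 0.16, adjusted p = 1.36e-04), though 88.0% of its exon bases also belong to a predicted gene on the same strand. Mrpl12, which forms the mobile stalk and in human cells also binds the mitochondrial RNA polymerase, rose by 0.55 ± 0.12 (adjusted p = 0.00188), with 69.2 ± 3.97 TPM in tuNK and 56.2 ± 8.29 in spNK. Mrpl10, which anchors Mrpl12, had a log2 fold change of 0.07 ± 0.09 and was not called. Its level was 45.4, 39.6, 44.0 and 42.1 TPM in tuNK 1 to 4 and 50.5, 49.5, 48.4 and 44.7 TPM in spNK 1 to 4, so the direction turned on the TPM scale (-0.17, adjusted p = 0.11). Mrpl11, at the same base, rose by 0.74 ± 0.11.

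Of the other large subunit proteins with bacterial homologues, 11 of 19 genes were higher, 2 lower and 6 not called, beside 35.6% higher and 34.0% lower of all genes. Mrpl17 was at 239, 221, 209 and 188 TPM in tuNK 1 to 4 and at 121, 96.7, 115 and 109 TPM in spNK 1 to 4. Every tuNK value was above every spNK value, and the gene rose 2.16-fold (log2 1.11 ± 0.08, adjusted p = 8.11e-07). Mrpl13 rose by 1.00 ± 0.10 and Mrpl33 by 0.63 ± 0.10. The genes that fell were Mrpl9 (-0.34 ± 0.11, adjusted p = 0.0167) and Mrpl36 (-0.39 ± 0.10, adjusted p = 0.00507). Mrpl36 was at 51.9 ± 2.91 TPM in tuNK and 81.0 ± 4.44 TPM in spNK. Mrpl34 had a log2 fold change of -0.32 ± 0.16 and was not called by counts. Its value moved to -0.19 without tuNK 1 and to -0.48 without tuNK 3, where it was called (adjusted p = 0.0183), as it was on log2(TPM + 1) (-0.60, adjusted p = 0.0015).

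The peptide exit tunnel, from which new chains leave toward the inner membrane, had 2 of 7 genes higher, 2 lower and 3 not called, with a median of 0.12, shares near the 35.6% and 34.0% of all genes. Mrpl45, the protein that holds the ribosome to the membrane, rose by 0.59 ± 0.14 (adjusted p = 0.00284), with 16.1, 15.7, 15.8 and 16.2 TPM in tuNK 1 to 4 and 11.7, 9.89, 14.3 and 14.4 TPM in spNK 1 to 4. Mrpl23 rose by 0.80 ± 0.15. Mrpl44, which carries a fold of the RNase III family, was at 15.2, 16.3, 13.3 and 16.3 TPM in tuNK 1 to 4 and at 34.0, 32.3, 33.8 and 31.9 TPM in spNK 1 to 4. The groups are well apart, with tuNK the lower, and the log2 change was -0.86 ± 0.11 with an adjusted p of 4.12e-05. Mrpl44 (ENSMUSG00000026248) lies on GRCm38 chromosome 1, from 79776018 to 79781445 on the plus strand. Mrpl39, also of the tunnel, changed by -0.40 ± 0.14 (adjusted p = 0.0229), and its call was lost without spNK 3, tuNK 1 or tuNK 3 (adjusted p 0.0525 to 0.0547).

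In the central protuberance, which joins the subunits, 5 of 8 genes were higher, 1 lower and 2 not called. For this count and those that follow, the shares over all genes tested were 35.6% higher and 34.0% lower. Of 9 genes listed for this structure, Mrpl58 carries another symbol here, so it is not among the 8. It was lower, with a log2 fold change of -0.47 ± 0.10 (edgeR adjusted p = 0.00118). Mrpl52 rose by 0.48 ± 0.12 and Mrpl38 by 0.53 ± 0.13 (adjusted p = 0.00339), a call not held on log2(TPM + 1) (0.29, adjusted p = 0.0553). Mrpl46 was at 21.3, 26.3, 18.7 and 19.1 TPM in tuNK 1 to 4 and at 36.4, 42.6, 43.0 and 37.4 TPM in spNK 1 to 4. It fell by 0.65 ± 0.13 (adjusted p = 0.00122). Mrpl46 and Mrps11 overlap on opposite strands by 173 bases, and Mrps11 had a log2 fold change of 0.00. The remaining mitochondria-specific proteins of the large subunit, Mrps18a among them, had 5 of 10 genes higher and 0 lower (5 were not called). Mrpl42 rose by 0.92 ± 0.13 and Mrpl51 by 0.64 ± 0.10, and Mrpl50 had -0.30 ± 0.15 without a call. It was called lower without spNK 1 (-0.40, adjusted p = 0.0341) and on log2(TPM + 1) (-0.51, adjusted p = 0.00603). Bacterial homologues (25 of 46 higher, 4 lower) and mitochondria-specific genes (18 of 30 higher, 3 lower) had medians of 0.31 and 0.30. Mrps36, since reassigned from the ribosome to the 2-oxoglutarate dehydrogenase complex, had a log2 fold change of -0.08 ± 0.10 and was not called, but on log2(TPM + 1) it was lower (-0.32, adjusted p = 0.0123). It was at 58.8, 56.1, 56.8 and 51.5 TPM in tuNK 1 to 4 and 72.4, 62.1, 78.1 and 67.2 TPM in spNK 1 to 4.

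The starts of these genes were examined because most of them were called higher by counts (43 of 77). On log2(TPM + 1) only 28 were higher and 16 lower. RefSeq promoter windows of 300 bases (250 before and 50 after the start, build GRCm38.p6) matched 68 of the 77 genes by symbol, in 74 windows. Both strands were searched for short motifs. CCGGAAG, the core bound by ETS factors such as GABP, a known activator of mitochondrial genes, was in 33.8% of the 74 windows, against 17.0% of 12597 windows of tested genes and 8.9% of all 32851 windows. The NRF1 motif, GCGCA, any base and GCGC, was in 17.6% against 9.6% of windows of tested genes, and AAGATGGC, a YY1 motif, in 16.2% against 4.2%. The E box CACGTG was in 9.5% against 9.6%, GGGCGG in 52.7% against 61.2%, CCAAT in 40.5% against 37.7%, TATAAA in 6.8% against 7.2%, and TGATGNAA, an ATF4 motif, in 0 of 74 windows against 2.3%. The ETS core was in 18 of 44 windows of genes called higher, in 0 of 7 windows of genes called lower and in 7 of 23 of those not called. The NRF1 motif was in 6 of 44 windows of genes called higher, in 4 of 7 of those called lower and in 3 of 23 of those not called. The YY1 motif was in 5 of 44, 2 of 7 and 5 of 23 of these windows, in the same order. These shares are descriptions of letters in the windows, with no test. Of the genes for these factors, Gabpa and Gabpb1 fell by 0.27 ± 0.08 and 0.47 ± 0.09, and Nrf1 had a log2 fold change of -0.15 ± 0.08 without a call. Yy1 fell by 0.81 ± 0.10, while Myc, whose product binds the E box, rose by 0.59 ± 0.20 (adjusted p = 0.0209). All of these were higher after leukocyte scaling, as were 79.3% of all genes.

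Stretches of 120 bases before the start are shown for the gene that rose furthest, for the 3 genes with the largest rise among those with an ETS core in that stretch, and for the genes called lower with an NRF1 motif in it. RefSeq and GENCODE place some starts differently, and each stretch ends before both, so that it lies outside the gene in either annotation. Each is written 5′ to 3′ on the gene's strand, with matches to these motifs, on either strand, in capitals. They are Mrps6 (chr16:92058150-92058269, plus), Mrps27 (chr13:99344666-99344785, plus), Mrps18a (chr17:46110866-46110985, plus), Mrpl52 (chr14:54426789-54426908, plus), Mrpl9 (chr3:94443198-94443317, plus) and Mrpl44 (chr1:79775898-79776017, plus).
Mrps6: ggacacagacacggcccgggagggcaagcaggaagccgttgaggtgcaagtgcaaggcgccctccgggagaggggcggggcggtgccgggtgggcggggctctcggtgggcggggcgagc
Mrps27: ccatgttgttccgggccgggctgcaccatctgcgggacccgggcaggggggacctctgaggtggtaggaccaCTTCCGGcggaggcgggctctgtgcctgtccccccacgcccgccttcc
Mrps18a: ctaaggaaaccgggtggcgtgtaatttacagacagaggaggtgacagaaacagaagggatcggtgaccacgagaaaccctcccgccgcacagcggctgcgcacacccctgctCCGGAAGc
Mrpl52: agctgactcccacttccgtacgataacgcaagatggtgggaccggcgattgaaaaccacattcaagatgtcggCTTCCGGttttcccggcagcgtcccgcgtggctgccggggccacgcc
Mrpl9: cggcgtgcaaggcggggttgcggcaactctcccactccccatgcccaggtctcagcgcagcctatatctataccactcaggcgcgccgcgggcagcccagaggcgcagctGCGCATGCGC
Mrpl44: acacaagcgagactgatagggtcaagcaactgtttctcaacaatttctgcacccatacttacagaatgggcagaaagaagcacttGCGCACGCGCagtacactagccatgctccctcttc

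The genes are spread over the genome, with at most 10 on a chromosome (chromosome 11). Of the 77, 19 start within 1000 bases of a protein-coding gene on the other strand that runs the opposite way (24.7%, against 11.1% of 12532 tested protein-coding genes). Of 18 neighbours tested, 6 were higher, 5 lower and 7 not called, beside 35.6% higher and 34.0% lower of all genes tested. In 4 pairs the calls were opposite, and in 3 both genes were higher. Mrps18b rose while Ppp1r10, 45 bases away, fell by 0.72, and Mrpl36 fell while Ndufs6, 29 bases away, rose by 0.34. Exons of 32 of the 77 genes overlap those of another annotated gene, on the same strand and with a tested gene in 5 of them. The library kit keeps strand, but the labels do not say whether counting used it, so their reads may be shared.

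Genes that serve the same ribosome were called in both directions; over all genes tested, 35.6% were higher and 34.0% lower. Of 6 mitoribosomal proteins with other symbols, Dap3, Chchd1 and Ptcd3, all of the small subunit, rose by 0.84 ± 0.14, 0.67 ± 0.12 and 0.61 ± 0.13. Gadd45gip1 and Aurkaip1 were not called. Mrpl58, listed in the tables as Ict1 and derived from a release factor, fell by 0.47 ± 0.10 (adjusted p = 0.00118), with 83.4 ± 11.8 TPM in tuNK and 135 ± 11.8 TPM in spNK. Of 15 translation factors 7 were higher and 5 lower, with a median of 0.12. Pdf, which removes the formyl group from the first residue of new chains, rose by 1.38 ± 0.15, the elongation factor gene Gfm1 by 0.91 ± 0.11 and Hemk1, which methylates release factors, by 1.66 ± 0.22. Of 28 assembly and RNA modification factors 7 were higher and 9 lower, with a median of 0.04. Rbfa, which matures the small subunit, fell by 1.35 ± 0.13, and the GTPase gene Gtpbp10 fell by 2.40 ± 0.34, while Rcc1l rose by 1.21 ± 0.16. Mitochondrial tRNA synthetases had 9 of 17 higher and 4 lower, with a median of 0.46; Tars2 rose by 1.46 ± 0.15 and Iars2 by 0.78 ± 0.10, and Pars2 fell by 1.54 ± 0.20. Of 19 tested regulators of mitochondrial transcription and biogenesis 6 were higher and 6 lower, with a median of 0.03. Beside Yy1, Mterf1a fell by 1.48 ± 0.19, while Slirp, which stabilises mitochondrial messengers, rose by 0.70 ± 0.10. Scaled to leukocyte genes, the translation factors (15 of 15), synthetases (16 of 17), assembly factors (26 of 28), regulators (18 of 19) and the 6 proteins with other symbols (6 of 6) were higher, beside 79.3% of all genes.

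**Figure D4:**
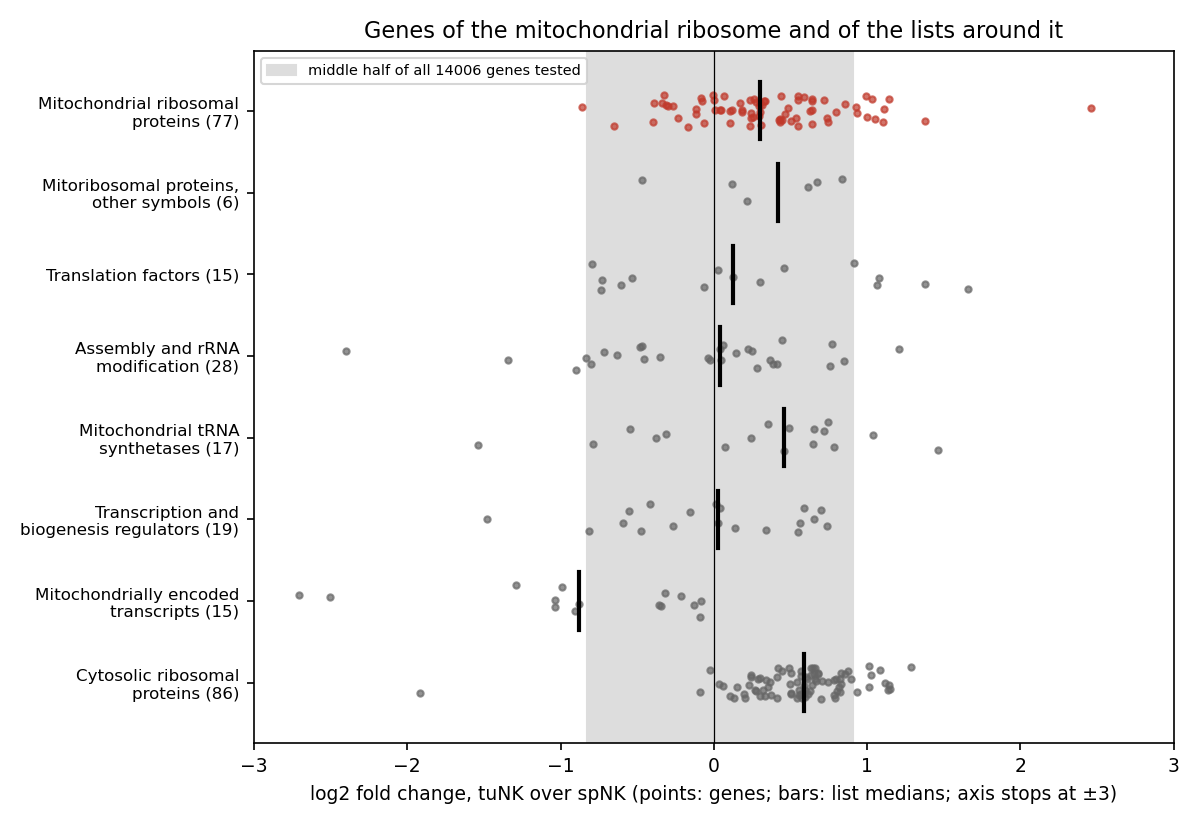
Log2 fold change, tuNK over spNK, of each gene (points) and the median (bars) for the 77 genes of the mitochondrial ribosome and for 7 lists around it, with the middle range of all genes tested shaded; 1 gene lies outside the axis. The 77 genes have a median of 0.30, cytosolic ribosomal proteins 0.59 and mitochondrially encoded transcripts -0.88.

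Of the RNA that this ribosome contains and translates, the ribosomal RNAs and some of the messengers were called lower in tuNK by counts. Of 15 mitochondrially encoded transcripts, edgeR called 0 higher (all 15 fold changes were below 1, so 0 also at an unadjusted p under 0.05). Of the 15, 9 fell and 6 were not called, with a median of -0.88. Over all genes tested, 35.6% were higher and 34.0% lower. Scaled to leukocyte genes, 12 were higher and 2 lower, with a median of 0.96, beside 79.3% higher and 5.44% lower of all genes. The 6 not called as first scaled were all messengers, the most abundant among them. They were mt-Atp8 (-0.09), mt-Cytb (-0.09), mt-Co1 (-0.13), mt-Atp6 (-0.21), mt-Co2 (-0.34) and mt-Nd4l (-0.36). The ribosomal RNAs fell furthest, and the median of -0.88 includes them. mt-Rnr2, the RNA of the large subunit, was at 482, 646, 603 and 543 TPM in tuNK 1 to 4 and at 3829, 3632, 3218 and 4784 TPM in spNK 1 to 4, and fell by 2.50 ± 0.16 on the log2 scale. mt-Rnr1, the RNA of the small subunit, fell by 2.71 ± 0.20. These were the 2 that stayed lower after leukocyte scaling (-0.67 and -0.88). The libraries were made from RNA selected for poly(A), which mitochondrial ribosomal RNA carries only as short tails, so their levels here need not be those of the ribosome. In sum, mitochondrially encoded transcripts held 43140 ± 7037 TPM in tuNK and 69010 ± 5354 TPM in spNK, a ratio of 0.625, beside the ratio of 1.10 for the 77 proteins.

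Cytosolic ribosomal proteins rose more widely, with 72 of 86 genes higher and 1 lower, and a median of 0.59. Over all genes tested, 35.6% were higher and 34.0% lower. The cytosolic proteins summed to 349000 ± 22290 TPM in tuNK and 287100 ± 15440 TPM in spNK, of 1000000 TPM in each library. Their list also holds close relatives of the usual proteins. The gene that fell was such a relative, Rps4l (-1.915 ± 0.46), and another, Rpl39l, stood at 275 TPM in tuNK and 0.518 TPM in spNK.

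**Figure D5:**
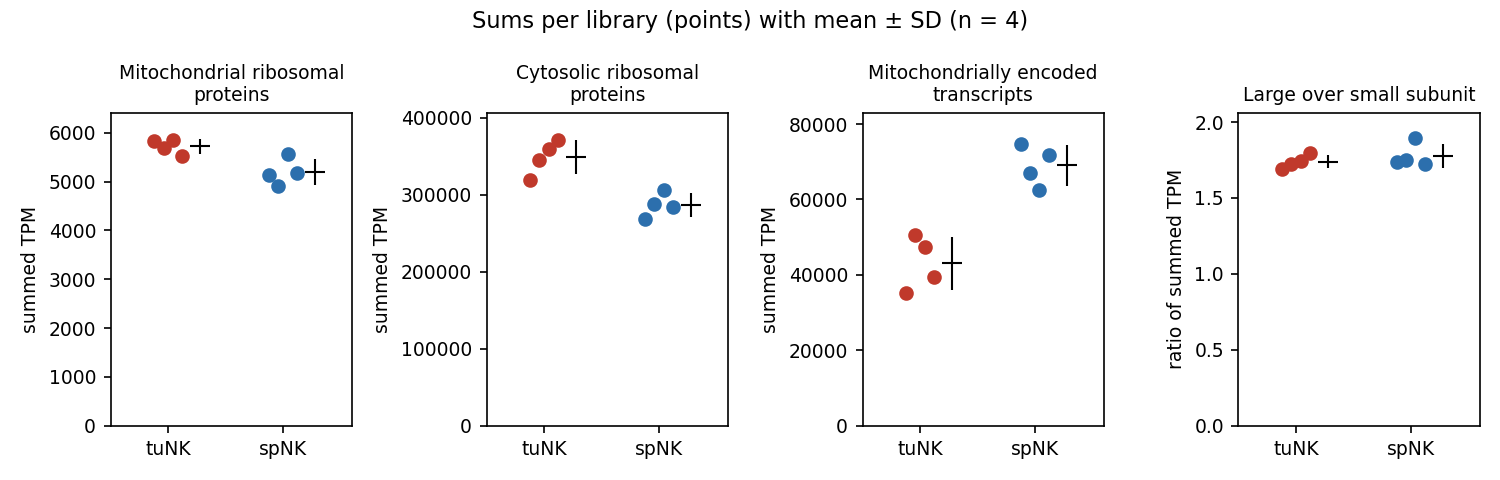
Summed TPM per library of the 77 genes of the mitochondrial ribosome, of cytosolic ribosomal proteins and of mitochondrially encoded transcripts, and the ratio of large to small mitochondrial subunit proteins (points, tuNK left, spNK right), with mean and SD of 4 libraries. Mitochondrially encoded transcripts are lower in all tuNK libraries, cytosolic ribosomal proteins are higher in all of them, and the ratio of the subunits overlaps.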

How the data were processed

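Bulk RNA-seq of 8 libraries was used. Per the submitters' processing notes, the tools were FastQC 0.11.9, STAR and Salmon, and the build GRCm38 (mm10). Other versions, the annotation and whether counting was stranded are not stated. The authors deposited estimated counts (expected counts) and TPM per gene, 1 column per sample. Estimated counts were rounded, genes kept by the filterByExpr rule of edgeR 4.0.16 (14006 of 45706), libraries scaled with TMM, and groups compared with the robust quasi-likelihood F test and Benjamini-Hochberg adjustment over all genes (threshold 0.05). Standard errors are the log2 fold change over the root of F. CPM are TMM-scaled. Fits on log2 TPM used limma 3.58.1.

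Members, lists and tests were chosen with earlier results of these data known. Named are the 8 highest and 8 lowest members by fold change, the 5 most abundant, the 2 with smallest p per structural role, 8 fixed genes, and up to 3 genes per list; others are marked or belong to overlaps. Mrpl58 was matched through its gene ID. Alternatives covered scaling, filters, DESeq2 1.42.0, limma, TPM offsets of 1 and 0.1, a replicate block, a fold of 1.5 and leaving out libraries.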

Additional observations from a re-analysis of the deposited data

Results flagged for a closer look

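Within the groups of 4 libraries, 76 sets of values were examined for a library far from the others, and 5 stood out; chance flags about 1 set in 20. Mrps6 was at 36.4 TPM in spNK 4, against 23.2 to 23.7 in the other spNK libraries. Mrpl33 was at 261.5 TPM in spNK 1, against 213.5 to 217.1 in the others. Mrpl9 was at 58.2 TPM in tuNK 1, against 70.0 to 72.1 in the other tuNK libraries, and Mrps9 at 40.1 TPM in spNK 1, against 44.0 to 44.8. The ratio of large to small subunit sums was 1.90 in spNK 3, against 1.72 to 1.75 in the other spNK libraries.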

How the results depend on the processing

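The counts of 43 higher and 7 lower members became 77 and 0 after leukocyte scaling (median 2.126), 31 and 14 by library size alone (median 0.1319), 28 and 16 on log2(TPM + 1) (median 0.06995) and on log2(TPM + 0.1) (median 0.07171), 24 and 16 with all genes above 0 (median 0.06995), 12 and 1 against a fold of 1.5, and 30 and 14 on TPM rescaled without ribosomal and mitochondrial transcripts (median 0.1527). Over all genes, 35.6% were higher and 34.0% lower as first scaled, and 79.3% and 5.44% after leukocyte scaling. These shares were 30.9% and 39.3% by library size alone, 28.4% and 39.2% on log2(TPM + 1), and 28.7% and 39.6% on log2(TPM + 0.1). They were 19% and 25.7% with all genes above 0, and 23.9% and 21.6% against a fold of 1.5. On rescaled TPM they were 30.7% and 37.5%. With 1 library left out the members called ran from 33 to 46 higher and from 6 to 8 lower, with medians of 0.249 to 0.354. Whether the replicate numbers pair the libraries is unknown. Correlations of same-numbered deviations were near 0 (-0.0081 to 0.0417), yet libraries correlated best with their own number in 3 of 4 pairs, and such values cannot settle it. The edgeR fit with a replicate block gave 45 higher and 8 lower, beside 35.2% and 33.1% of all genes. In it Mrps18c had an adjusted p of 0.0625 and Mrpl50 was called lower (adjusted p = 0.025). TPM scaled with TMM gave 38 higher and 8 lower (median 0.25), beside 34.1% higher and 34.1% lower of all genes. This setting, the rescaled TPM and leaving out spNK 3 with tuNK 1 were chosen after seeing the data. Leukocyte scaling raises all genes nearly alike (median of all genes 1.84, against 0.02), so all 77 members came to lie above 0, and these signs say nothing of single genes: Mrpl44 (0.95), Mrpl46 (1.15), Mrpl39 (1.39), Mrpl36 (1.44), Mrpl9 (1.49), Mrpl50 (1.51), Mrps9 (1.51), Mrpl34 (1.52), Mrps24 (1.57), Mrps23 (1.66) and Mrps36 (1.74) among them. By library size alone Mrpl34 (-0.50), Mrpl50 (-0.48), Mrps23 (-0.34) and Mrps36 (-0.25) were called lower. Mrpl10 turned to -0.10 by library size alone, -0.17 on log2(TPM + 1), with and without the filter, -0.17 on log2(TPM + 0.1) and -0.089 on rescaled TPM. Mrps21 turned to -0.0693 on log2(TPM + 0.1) and -0.0691 on log2(TPM + 1), with and without the filter, and Mrps36 to 0.0011 without spNK 3 and tuNK 1. Leukocyte scaling also moved the lists: regulators 18 higher and 0 lower, translation factors 15 and 0, tRNA synthetases 16 and 0, assembly factors 26 and 0, mitochondrial transcripts 12 and 2, proteins with other symbols 6 and 0, and cytosolic ribosomal proteins lower 0. The cause was not tested. How depth limits these calls was not tested.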
